A study of Homo sapiens with 12 samples.

Results

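The CREC family comprises 5 genes, RCN1, RCN2, RCN3, SDF4 and CALU, which encode calcium-binding proteins of the secretory pathway. They were selected on family membership, and the family itself was chosen by the rise of RCN3 after USP7 inhibition in these same libraries. All 5 members were found by Ensembl identifier among the 60609 genes listed per library, and each of the 5 was among the 13895 genes with enough counts to be tested. Expression was measured by RNA-seq in K562, an established BCR-ABL-positive cell line derived from blast-crisis chronic myeloid leukemia. Control cells received DMSO and treated cells received 10 μM FT671, a small molecule that inhibits the deubiquitinase USP7, for 48 h, with 3 libraries in each group. This is 1 cell line, 1 dose and 1 time point, and 6 ChIP samples of the series, from cells treated for 24 h, were not analysed here.

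CREC proteins carry several EF-hand motifs, the helix-loop-helix folds that hold calcium ions, and they bind calcium with low affinity. They reside in the lumen of the endoplasmic reticulum (ER) and the Golgi apparatus, where calcium is stored and secretory proteins fold, and some are secreted. RCN1, RCN2 and RCN3 are the reticulocalbins of the ER. SDF4, also known as Cab45, works in the Golgi lumen in calcium-dependent sorting of secreted cargo. CALU, or calumenin, is known for its effects on calcium uptake into the ER and on vitamin K-dependent carboxylation.

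Total counts per library lay between 4555220 and 14250500, and 3 counts, the smallest level regarded as detectable, corresponded to 0.208 to 0.666 CPM, where CPM are counts scaled to a common library size and expressed per 1e+06 counts. Of the 11 K562 and erythroid markers that passed the filter, 4 were higher and 7 lower after treatment, and HBE1 did not pass. HBZ, an embryonic globin gene, rose from 39.0 ± 5.64 to 137 ± 9.67 CPM (SD, n = 3 per group). The fetal globin genes HBG1 and HBG2 rose by 1.41 and 1.22 on the log2 scale, although reads from these near-identical genes are hard to assign. TFRC, the transferrin receptor gene and the most expressed of the list, fell by 0.40 on the log2 scale. DMSO replicate 3 stood apart, as its chi-square against the other DMSO libraries was 7.55 and 8.73 per degree of freedom. The other pairs of replicates gave 2.07 to 3.20. Results are therefore also given without it. The labels do not say whether replicates were separate cultures, but the paper describes this RNA-seq as 3 independent experiments. The p-values measure the spread between these libraries, which may in part be technical.

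The promoters of the members with the largest fitted changes in each direction, RCN3 upward and CALU downward, are shown as RefSeq gives them (GRCh38.p14, plus strand, up to the base before the annotated start). Capitals mark the CCAAT box in either orientation (CCAAT or ATTGG) and the GC box (GGGCGG or CCGCCC), which were searched on both strands together with the E-box CACGTG. In RCN3 one ATTGG overlaps one GGGCGG.
RCN3, chr19:49527753-49528002: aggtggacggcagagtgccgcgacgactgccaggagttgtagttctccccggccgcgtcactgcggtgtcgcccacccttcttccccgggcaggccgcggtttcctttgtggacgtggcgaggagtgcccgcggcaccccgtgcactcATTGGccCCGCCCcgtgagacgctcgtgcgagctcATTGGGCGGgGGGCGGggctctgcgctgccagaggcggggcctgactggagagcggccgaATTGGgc
CALU, chr7:128739109-128739291: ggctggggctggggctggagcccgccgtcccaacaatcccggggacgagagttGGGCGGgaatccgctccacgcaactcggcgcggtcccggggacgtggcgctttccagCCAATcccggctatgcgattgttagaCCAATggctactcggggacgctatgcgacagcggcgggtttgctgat

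Over the full 250 bases upstream, the RCN3 promoter held 3 CCAAT boxes and 3 GC boxes. CALU had 3 and 3, of which 2 CCAAT boxes and 1 GC box lie in the stretch printed. The other windows held 1 and 3 in RCN1, 2 and 3 in RCN2 and 2 and 2 in SDF4. All 5 members thus carried both motifs. Of 35116 RefSeq promoter windows, 32.0% held a CCAAT box and 42.6% a GC box. These shares are for each motif alone and are not matched for G and C content. CACGTG occurred once, in SDF4, and in 6.34% of all windows. CG dinucleotides numbered 28 in RCN3, 30 in CALU and RCN1, 33 in RCN2 and 44 in SDF4, against a median of 11. The content of G and C was 69.2% to 78.4% in the members and 58.0% in the median window. RCN3 and the other members were not separated by the presence of either box.

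RCN3 encodes an ER-lumen reticulocalbin known to bind the proprotein convertase PACE4, the product of PCSK6. The gene (ENSG00000142552) lies on chromosome 19, positions 49528003 to 49546962 of hg38, plus strand. Its counts were 28, 32 and 22 in the DMSO libraries and 115, 121 and 251 in the FT671 libraries. On the CPM scale, this was 1.94, 2.93 and 4.07 under DMSO and 25.5, 21.8 and 22.4 under FT671. The 3 treated libraries lay close together and above every control library, with a gap of 17.8 CPM between the groups. Within DMSO, replicate 1 was lowest and replicate 3 highest, but their 95% exact Poisson intervals (1.29 to 2.80 and 2.55 to 6.16 CPM) overlapped. These intervals cover counting error only.

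Mean expression of RCN3 went from 2.98 ± 1.06 to 23.3 ± 1.99 CPM (SD, n = 3 per group), a fitted 8.46-fold difference, or 3.08 on the log2 scale (SE 0.20). As the family was picked for this value, no p-value is given for it. Only 5 of the 13895 genes tested had a larger fitted log2 fold change. Under DMSO, 14.9% of the genes tested had a lower mean CPM than RCN3, and under FT671 52.1% did. The log2 fold change was 3.27 without DMSO replicate 3 and stayed between 2.78 and 3.27 whichever library was left out. No other annotated gene overlaps RCN3, and 0 of its 1751 31-base words occur in transcripts of another gene. In bulk RNA, a larger share of cells that express the gene and more RNA per cell cannot be told apart.

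**Figure D1:**
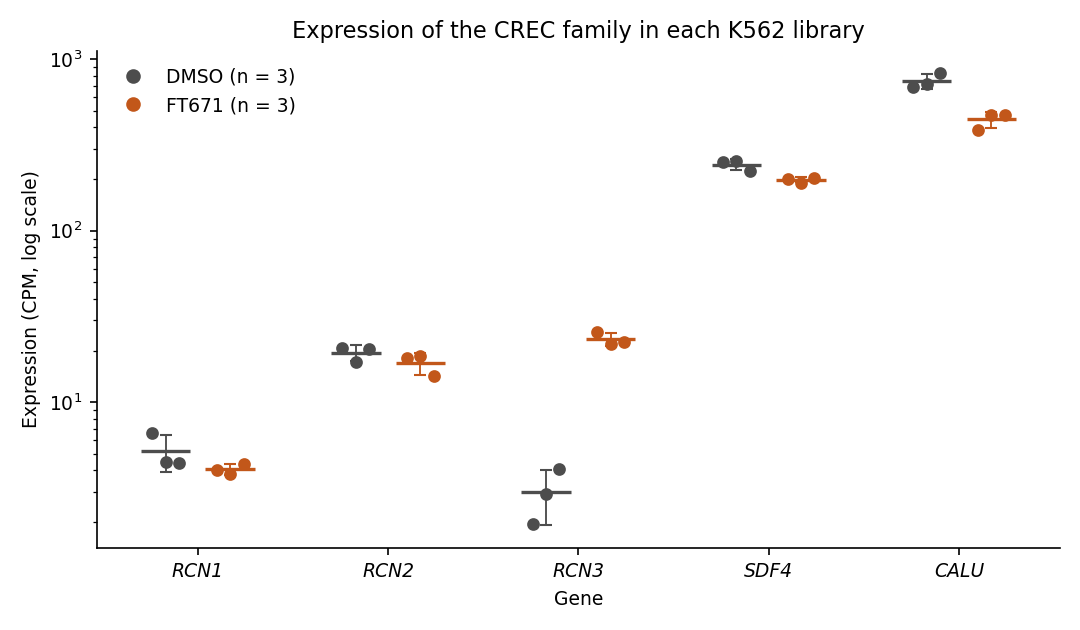
Expression in CPM (log axis) of the 5 CREC genes in the 3 DMSO (grey) and 3 FT671 (orange) libraries. Points are libraries, in order of replicate number, thick lines are means and thin bars are SDs. RCN3 moves from 1.94–4.07 to 21.8–25.5 CPM, whereas CALU and SDF4 lie lower after FT671 and RCN2 overlaps between groups.

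Among the 4 members that entered through the family alone, CALU and SDF4 were lower after treatment, and RCN1 and RCN2 did not pass the test. Across all genes tested, 23.6% were called higher and 26.5% lower at an adjusted p-value of 0.05, so 2 of 4 members lower is read only gene by gene. The median log2 fold change over all genes was -0.01. In 57.1% of the genes tested the DMSO and FT671 libraries did not overlap, in one direction or the other. Separate groups were thus common among all genes.

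RCN1 (ENSG00000049449, chromosome 11, 32091074 to 32105722, plus strand), the founding reticulocalbin of the ER lumen, was weakly expressed. It had 96, 49 and 24 counts under DMSO and 18, 21 and 49 under FT671. This gave 6.65, 4.49 and 4.44 CPM in controls and 4.0, 3.79 and 4.38 CPM in treated cells. The treated libraries were all lower, but the closest pair differed by 0.0572 CPM. The means were 5.19 ± 1.26 and 4.06 ± 0.299 CPM. The log2 fold change was -0.38 (SE 0.229, 95% interval -0.87 to 0.11), which did not pass the test (adjusted p = 0.181, edgeR). Leaving out DMSO replicate 1, the highest library, moved it to -0.12, and without DMSO replicate 3 it was -0.46. In both cases it again did not pass.

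The level of RCN1 is uncertain because 20.9% of its exon bases, and 74.4% of its canonical coding bases, are shared on the same strand with ENSG00000285283, an annotated gene that spans into RCN1 and had 0 counts in all 6 libraries. Counting that leaves out reads touching more than 1 gene would lose reads there. On the opposite strand ENSG00000255252, a lncRNA gene, had 0 to 6 counts. Of the RCN1 pseudogenes, RCN1P2 had 1 to 6 counts per library and RCN1P1 had 0. Of the 31-base words of RCN1 transcripts, 37.0% occur in transcripts of other genes, 29.5% in TPT1-AS1.

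RCN2 (ENSG00000117906, chromosome 15, 76931738 to 76954393, plus strand) encodes the ER reticulocalbin also called ERC-55. Counts were 300, 186 and 111 under DMSO and 81, 103 and 158 under FT671, or 20.8, 17.0 and 20.5 CPM against 18.0, 18.6 and 14.1 CPM. The groups overlapped, as FT671 replicates 1 and 2 both lay above DMSO replicate 2. Means were 19.4 ± 2.09 and 16.9 ± 2.42 CPM, and the log2 fold change of -0.23 (SE 0.142, 95% interval -0.54 to 0.07) did not pass the test (adjusted p = 0.193, edgeR). A fall to the lower end of that interval is not excluded by these data. Without DMSO replicate 3 the value was -0.22, and without FT671 replicate 3, the lowest library, it was -0.08.

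SDF4 (ENSG00000078808, chromosome 1, 1216931 to 1232031, minus strand), the Golgi member, was well covered. Counts were 3635, 2771 and 1201 under DMSO and 907, 1053 and 2264 under FT671. In CPM, controls stood at 252, 254 and 222 and treated cells at 201, 190 and 202. DMSO replicate 3 was the lowest control, yet remained above every treated library. The mean fell from 243 ± 17.8 to 198 ± 6.89 CPM, a log2 fold change of -0.30 (SE 0.0747, 95% interval -0.46 to -0.14, adjusted p = 0.00463, edgeR). In the fit this is a change of -18.5%. The value without DMSO replicate 3 was -0.36, and over all 6 fits that left out 1 library it ranged from -0.36 to -0.26, passing the test each time.

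CALU (ENSG00000128595, chromosome 7, 128739292 to 128773400, plus strand) had the most counts of the family. The DMSO libraries held 9963, 7838 and 4476 counts and the FT671 libraries 1750, 2634 and 5281. Expressed as CPM, controls reached 690, 718 and 827 and treated cells 389, 475 and 472. DMSO replicate 3 was the highest control and FT671 replicate 1 the lowest treated library, and the groups did not overlap. The mean fell from 745 ± 72.6 to 445 ± 49.1 CPM. The log2 fold change was -0.74 (SE 0.0913, 95% interval -0.94 to -0.54, adjusted p = 1.70e-05, edgeR), a change of -40.1%. Leaving out DMSO replicate 3 gave -0.66, and the range over fits leaving out 1 library was -0.79 to -0.65. OPN1SW, on the opposite strand, overlaps 2.76% of the exon bases of CALU and had 0 to 10 counts, and the intronic RN7SL81P had 1 to 5.

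**Figure D2:**
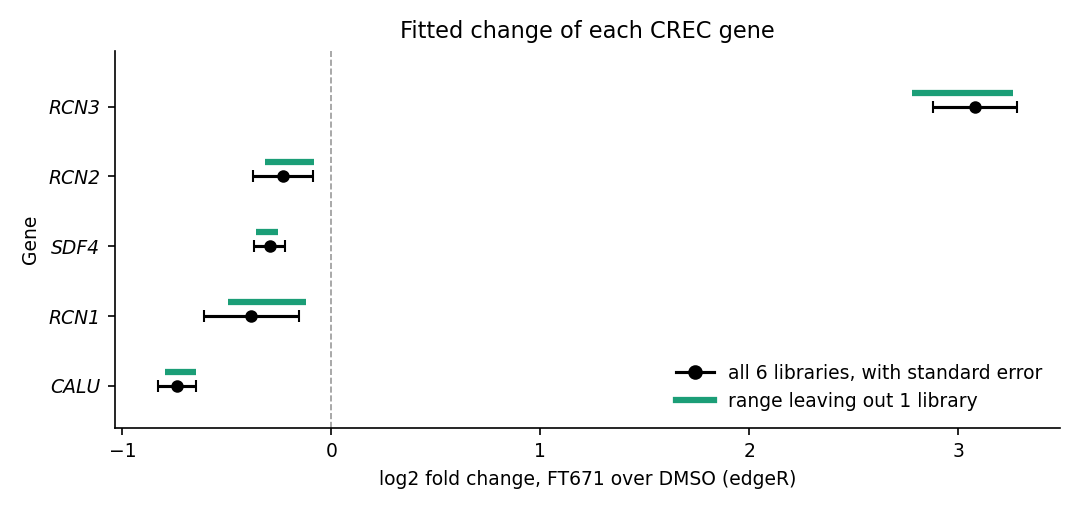
Fitted log2 fold change (FT671 over DMSO) of each CREC gene, with points and bars for the estimate and its standard error over all 6 libraries and green lines for the range when 1 library is left out. RCN3 lies at 3.08 and the other members between -0.74 and -0.23. For RCN3 this is a description, as the family was chosen by it.

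Levels can be compared between genes only per length, so CPM were divided by the exon length of each gene in kb. Under DMSO the order of the mean levels per kb was CALU (117 ± 11.5), SDF4 (51.8 ± 3.80), RCN2 (1.96 ± 0.211), RCN3 (1.75 ± 0.625) and RCN1 (1.16 ± 0.282). CALU and SDF4 were apart from each other and from the rest in every library. RCN2 lay above RCN1 in every DMSO library, whereas RCN3 overlapped both and ranked between 3 and 5 in single DMSO libraries. Under FT671 the order was CALU (70.2 ± 7.74), SDF4 (42.2 ± 1.47), RCN3 (13.7 ± 1.17), RCN2 (1.71 ± 0.245) and RCN1 (0.907 ± 0.0670), and RCN3 ranked 3 in all 3 libraries. The ranks of the means were also the same with the longest transcript or with unshared exon bases as the length.

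RCN3 made up 0.681% to 1.30% of the summed CPM per kb of the family in DMSO libraries and 9.78% to 12.3% in FT671 libraries. In plain counts its share went from 0.20–0.377% to 3.08–4.01%. For each count of RCN1 there were 0.292, 0.653 and 0.917 counts of RCN3 under DMSO and 6.39, 5.76 and 5.12 under FT671. The ratio to RCN2 counts went from 0.0933–0.198 to 1.17–1.59. The summed CPM of the family, which is mostly CALU, was 971 to 1078 under DMSO and 638 to 715 under FT671. The summed level was thus lower in every treated library while RCN3 held a larger share of it. These shares contain the value by which the family was chosen and are given as a description.

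**Figure D3:**
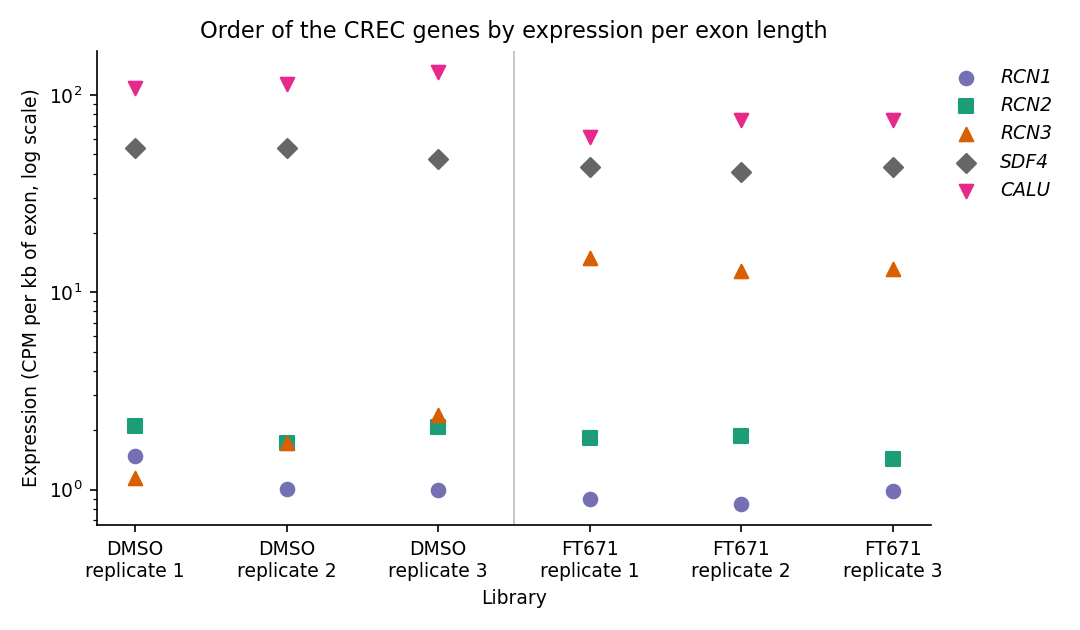
Expression per exon length (CPM per kb, log axis) of the CREC genes in each of the 6 libraries, with 1 symbol per gene. RCN3 lies among RCN1 and RCN2 under DMSO and between SDF4 and RCN2 after FT671.

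Over the 6 libraries, the genes whose log2 CPM was most like that of RCN3 were DDX27, NCL, DDX19A, EIF4G1 and NCBP2, with Pearson correlations of 0.996 to 0.997 among 13865 genes compared. Their log2 fold changes were 0.65, 0.78, 0.70, 0.50 and 0.80, smaller than that of RCN3, so the likeness is in shape and not in size. NCL encodes nucleolin, EIF4G1 a scaffold of translation initiation, NCBP2 the small subunit of the nuclear cap-binding complex, and DDX27 and DDX19A encode RNA helicases. A correlation above 0.95 was reached by 815 genes, and the 6 points behind each are the same 2 groups of 3 libraries.

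The surroundings of RCN3 did not move in 1 direction. Of 24 other annotated genes within 100 kb, 11 were tested, of which 4 were higher and 4 lower. Without DMSO replicate 3, 3 were higher and 5 lower. FCGRT, which encodes the neonatal Fc receptor and ends 1575 bases upstream of RCN3 on the same strand, rose from 5.66 ± 0.163 to 10.2 ± 0.993 CPM (log2 fold change 0.85, SE 0.163, adjusted p = 0.000655, edgeR). RRAS, a Ras-related GTPase gene, rose by 1.0 and SLC17A7, the gene of a vesicular glutamate transporter, by 0.77 on the log2 scale.

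Genes that rose and genes that fell lay on both sides of RCN3. In the other direction, PRR12 fell from 106 ± 9.14 to 43.9 ± 2.84 CPM, a log2 fold change of -1.28. SCAF1 and ALDH16A1 fell by 1.07 and 0.99 on the log2 scale. The lncRNA gene ENSG00000268636 fell by 2.30 but had 1 to 29 counts and lies within PRR12 on the opposite strand, so their reads cannot be told apart without strand information. NOSIP, the nearest gene downstream, stood at 0.31 (adjusted p = 0.0690), RPL13A at 0.23 and PIH1D1 at -0.07, and these did not pass the test. RPL13A is one of the ribosomal protein genes, which have many processed pseudogenes.

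**Figure D4:**
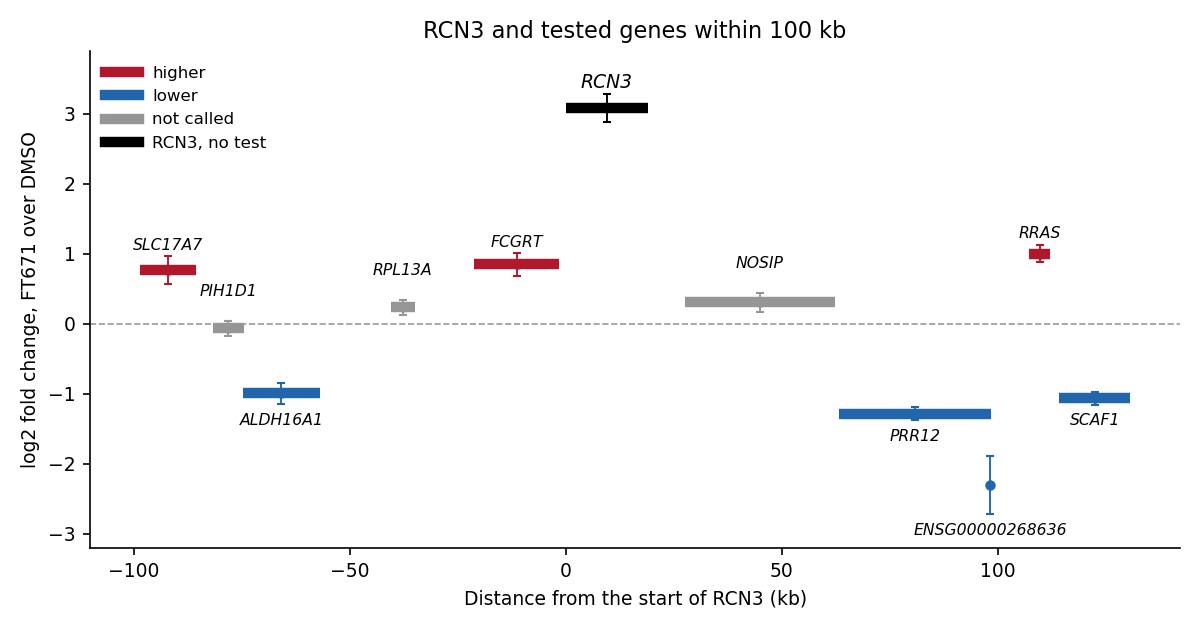
Fitted log2 fold change (FT671 over DMSO) of RCN3 and 10 of the 11 tested genes within 100 kb, against distance from the RCN3 start in kb. Horizontal bars span gene bodies, thin bars are standard errors and colors give the call. FCGRT, next to RCN3, is higher at 0.85, while PRR12, SCAF1 and ALDH16A1 are lower.

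Most other genes of calcium buffers and chaperones of the ER lumen were lower. Of 14 genes of lumenal chaperones and calcium buffers, 12 were tested, of which 9 were lower and 0 higher with edgeR (1 higher at an unadjusted p-value under 0.05, 0 with DESeq2), with a median log2 fold change of -0.27. CALR, which encodes the major calcium buffer calreticulin, fell from 1981 ± 158 to 1532 ± 30.3 CPM. CANX, its membrane-bound relative and the most expressed gene of the list, fell by 0.26 on the log2 scale. The chaperone gene HYOU1 fell by 0.63, TXNDC5 by 0.60 and PDIA4 by 0.29, the latter pair encoding protein disulfide isomerases. Leaving out DMSO replicate 3 gave 9 lower and 1 higher, and a correction for gene length 5 lower and 1 higher. The muscle calcium buffers CASQ1 and CASQ2 had at most 1 count.

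A list of ER and Golgi calcium pumps and channels also held genes of store-operated calcium entry and of other cation channels. Of its 20 genes, 17 were tested, with 10 lower, 2 higher and a median of -0.52. Without DMSO replicate 3, 11 were lower and 2 higher. Among the calcium pumps and release channels themselves, ATP2A2, ATP2A3, ITPR1 and ITPR2 were lower and ITPR3 and RYR1 higher. ATP2A2 and ATP2A3, the SERCA pumps that fill the ER with calcium, fell from 371 ± 25.2 to 201 ± 1.58 CPM and from 304 ± 16.7 to 138 ± 10.3 CPM. ORAI2, a pore subunit of store-operated calcium entry, fell by 1.33 on the log2 scale. TMEM38A, a cation channel gene of the ER, fell by 1.32 from 1.95 ± 0.13 CPM. RYR1, a calcium release channel, rose from 7.48 ± 1.38 to 17.4 ± 3.08 CPM, and the inositol trisphosphate receptor gene ITPR3 was the other gene higher, at 0.94. ATP2C1, the Golgi pump that works with SDF4 in cargo sorting, stood at 0.10 (adjusted p = 0.425, edgeR). ITPR1, ITPR2, ITPR3 and ATP2C1 were named after their values were seen.

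Of 16 other EF-hand genes of the secretory pathway, 9 were tested, with 2 lower, 0 higher (2 higher at an unadjusted p-value under 0.05, 0 with DESeq2) and a median of -0.12. FKBP14, an ER prolyl isomerase with EF-hands, fell by 0.64 and NUCB2 by 0.36 on the log2 scale, whereas NUCB1, a Golgi calcium-binding protein gene and the most expressed, stood at -0.12 (adjusted p = 0.172, edgeR). This list depended on single libraries. Without DMSO replicate 3, 2 were higher and 3 lower, and without FT671 replicate 1 or FT671 replicate 3 only 1 was lower.

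Several CREC proteins carry an HDEL-type retrieval signal, which KDEL receptors recognize for return to the ER in COPI vesicles. Of 12 genes of KDEL receptors and the COPI coat, 11 were tested, with 7 lower, 2 higher and a median of -0.43. KDELR1, the most expressed receptor, stood at 0.01 (adjusted p = 0.918, edgeR), while KDELR3 fell from 19.4 ± 3.17 to 12.1 ± 1.29 CPM. The coat genes COPG1, COPB1 and COPA fell by 0.59, 0.56 and 0.52 on the log2 scale. COPG2 and COPE were higher, but only 1 gene was higher without DMSO replicate 3, FT671 replicate 1 or FT671 replicate 3.

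For the vitamin K cycle, in which CALU has a known role, 6 of 16 genes were tested, with 2 lower, 0 higher (0 at an unadjusted p-value under 0.05 and 0 with DESeq2) and a median of -0.12. GAS6, a carboxylated ligand of TAM receptors, fell from 19.5 ± 1.6 to 10.6 ± 0.694 CPM. VKORC1L1, a vitamin K epoxide reductase, fell from 65.8 ± 9.27 to 42.2 ± 1.09 CPM. The median was 0.01 without DMSO replicate 3. Of the proprotein convertases, 6 of 9 were tested, with 4 lower, 1 higher and a median of -0.52, and with the same counts without DMSO replicate 3. PCSK6, whose product binds RCN3, fell from 39.4 ± 1.55 to 25.5 ± 1.21 CPM (log2 fold change -0.64, SE 0.101, adjusted p = 0.000133, edgeR). FURIN and MBTPS1, proteases of the Golgi, fell by 0.83 and 0.88 on the log2 scale. PCSK4 was higher at 0.49, a call that was lost without DMSO replicate 1, FT671 replicate 1 or FT671 replicate 3 in turn.

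RCN3 has been linked to collagen production in other tissues, and the collagen-modifying enzymes and chaperones of the ER were mixed. Of 16 genes, 14 were tested, with 4 higher and 5 lower, as also without DMSO replicate 3. The median was -0.04, which turned to 0.04 without FT671 replicate 2 and to 0.09 with a correction for gene length. P4HA1, a prolyl 4-hydroxylase subunit, rose from 49.9 ± 5.98 to 70.7 ± 5.20 CPM. The prolyl 3-hydroxylase family genes P3H3 and P3H1 fell by 0.97 and 0.65, the collagen galactosyltransferase gene COLGALT2 by 0.79 and the cyclophilin gene PPIB, the most expressed, by 0.49 on the log2 scale.

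Targets of the unfolded protein response, which raises ER folding capacity under stress, were lower in 12 and higher in 2 of 16 genes, all tested, with a median of -0.83. TRIB3 fell from 163 ± 18.0 to 50.2 ± 4.72 CPM. SDF2L1, an ER chaperone cofactor, fell by 1.48 on the log2 scale. HERPUD1, a component of ER-associated degradation, fell by 1.34. The stress transcription factor genes ATF3 and ATF4 were those higher, ATF3 from 16.6 ± 0.655 to 51.5 ± 1.55 CPM and ATF4, the most expressed, from 310 ± 13.2 to 403 ± 13.8 CPM. Without DMSO replicate 3, 12 were lower and 3 higher.

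**Figure D5:**
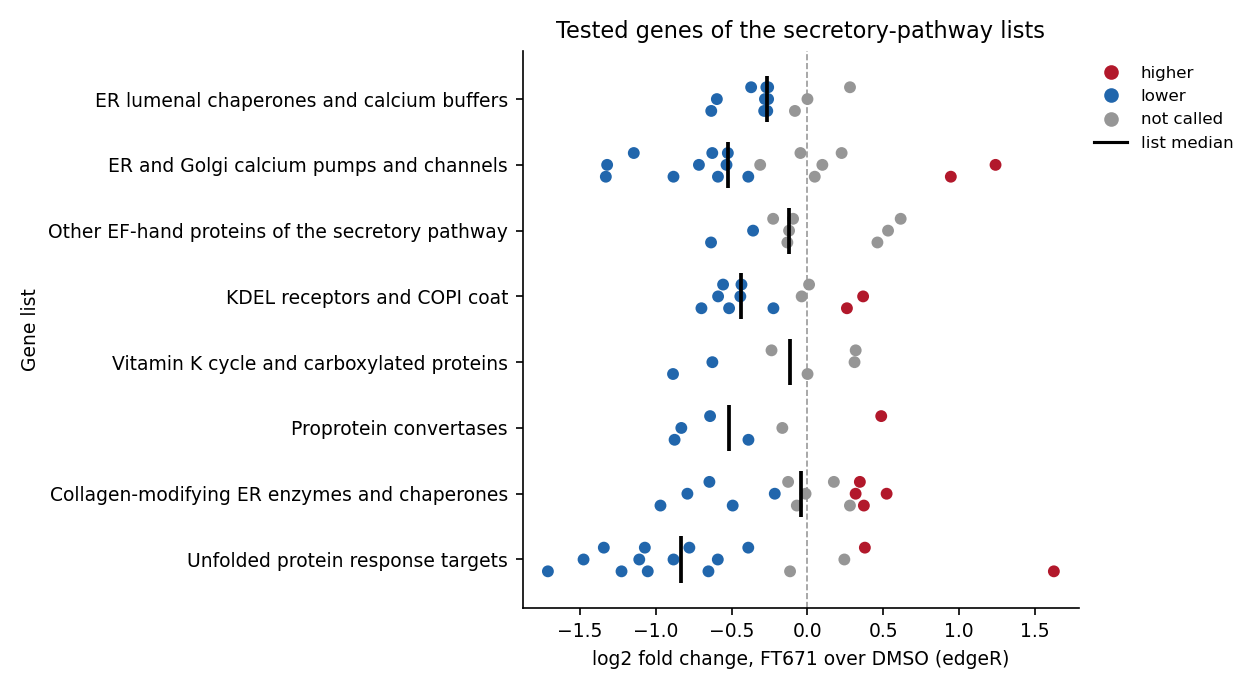
Fitted log2 fold change (FT671 over DMSO) of the tested genes in 8 lists of the secretory pathway, 1 point per gene, colored by call at an adjusted p-value of 0.05, with a black line at each list median. The medians lie between -0.83 for the unfolded protein response and -0.04 for the collagen-modifying genes.

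Markers of other cell types were examined as a check on the cell line. Of 12 fibroblast and stromal markers 2 were tested, and 0 were higher or lower with edgeR, at an unadjusted p-value under 0.05 or with DESeq2. COL3A1, LUM, PDGFRA, THY1, FAP and POSTN were at 0 counts in all 6 libraries. VIM, which K562 cells also express, stood at 2429 ± 180 and 2471 ± 58.5 CPM, and COL1A1, named after its values were seen, at 1.46 ± 0.424 and 1.85 ± 0.462 CPM. The summed level of the list was 2274 to 2628 CPM under DMSO and 2431 to 2540 CPM under FT671, nearly all of it VIM. Of 12 lymphoid, myeloid and epithelial markers 6 were tested, of which 4 were higher (EPCAM and LYZ by 0.49, CD3D by 0.44 and KRT8 by 0.26 on the log2 scale) and 0 lower with edgeR (0 at an unadjusted p-value under 0.05, 0 with DESeq2). Their summed level was 521 to 597 CPM under DMSO and 662 to 700 CPM under FT671, and MS4A1 was at 0. The counts of all 3 marker lists were the same without DMSO replicate 3. The part of these markers in the values of RCN3 was not tested.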

How the data were processed

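RNA-seq libraries of K562 cells (3 DMSO, 3 FT671) were grouped by their labels. The authors deposited raw counts per gene, without normalization, from ribosome-depleted, paired-end libraries aligned to hg38 with STAR. The STAR version, annotation release and strand setting are not given in the sources used here. Of 60609 identifiers, 60295 matched GENCODE release 44, and the rest held 0.0609% of counts.

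Genes were filtered with filterByExpr, scaled by TMM and compared by the quasi-likelihood test of edgeR 4.0.16 (R 4.3.3) without covariates, with Benjamini-Hochberg adjustment over all 13895 genes. CPM used TMM-scaled library sizes. The fit was checked on simulated counts. Alternatives included DESeq2 1.42.0, other scalings and filters, corrections for gene length and GC content, a replicate block and leaving out each library. Unshared exon bases as a length were added after the data were seen. Tables were made with Python 3.11.15.

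The members and gene lists were chosen with earlier results of these data known. Beside the members, the genes named are those overlapping a member and its pseudogenes, tested genes within 100 kb of RCN3, the 5 genes most correlated with RCN3, and, per list, the most expressed gene and up to 4 called genes with the largest change (mean of at least 1 CPM). Promoters came from RefSeq (GRCh38.p14), 250 bases upstream, of which the bases before the annotated start are printed. Motif and word searches are descriptions. Some genes that the rule names are not reported here.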

Additional observations from a re-analysis of the deposited data

How the results depend on the processing

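Each of the 5 members kept its direction, and the 4 with a test kept their side of the 0.05 threshold, under all 18 alternatives run. These included other scalings, filters, tools, corrections and left-out libraries. For RCN1 and RCN2 the direction is that of a change that was not called. RCN1 stood at -0.08 with counts thinned to the smallest library total (adjusted p = 0.849, edgeR). RCN2 stood at -0.05 with a gene length correction and a replicate block (adjusted p = 0.76, edgeR). For all genes, 3276 were higher and 3687 lower at 0.05. The stricter threshold of 1e-05, which the study's methods applied to DESeq2, left 249 higher and 574 lower with edgeR, fewer because the threshold is stricter. SDF4 did not pass 1e-05 in any fit. CALU did not with edgeR on all 6 libraries (1.70e-05), but did with DESeq2 (adjusted p = 8.17e-12), and over all alternatives its adjusted p ranged from 1.69e-19 to 0.000246. With the replicate number as a block, CALU was at -0.74 (adjusted p = 5.98e-07, edgeR), SDF4 at -0.29 and RCN3 at 3.06, and 3374 genes were higher and 3761 lower. Libraries with the same number correlated at 0.115, -0.0605 and 0.140 in their deviations from the group means. The mean was 0.0647 for the same number and -0.0347 for different numbers. The biological coefficient of variation was 0.0832, and 0.0736 with the block. The main fit did not pair the samples by number, but these values do not exclude a weak pairing. Corrected for gene length, RCN2 stood at -0.09 and RCN3 at 2.99, and 3848 genes were higher and 3325 lower. Corrected for GC content, 4011 genes were higher and 3742 lower. Which direction held more genes thus depended on the setting. Of the 270 values each over the lists and neighbourhoods, the number of higher genes moved in 32, the number of lower genes in 7 and the median in 47, and the cause was not tested. Depth limits RCN1 most, with 18 to 96 counts per library over both groups, and RCN3 under DMSO, with 22 to 32.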

Other observations

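The genes named here beside the other members were singled out after their values were seen. B3GALT6, a galactosyltransferase gene that starts 206 bases from SDF4 on the opposite strand, fell from 19.8 ± 1.76 to 9.02 ± 0.934 CPM (SD, n = 3 per group). Its log2 fold change was -1.12 (SE 0.141, adjusted p = 2.04e-05, edgeR), beside -0.30 for SDF4. FLNC, the filamin C gene, lies 57006 bases downstream of CALU and fell from 473 ± 16.9 to 225 ± 22.7 CPM. On the log2 scale FLNC stood at -1.07, beside -0.74 for CALU. The lncRNA gene FLNC-AS1, which overlaps FLNC on the opposite strand, stood at -1.17. Reads of FLNC and FLNC-AS1 cannot be told apart without strand information. The surroundings of CALU were mixed. Among 10 genes tested within 100 kb of it, 4 rose and 3 fell, and the middle value was 0.36. CCDC136, the nearest of these at 17357 bases, was higher at 0.43 (adjusted p = 0.0017, edgeR). ATP6V1FNB had the largest fall of the 10, at -5.03, but had only 11 to 36 counts under DMSO and 0 to 1 under FT671. Around SDF4, 7 genes were tested within 100 kb, and 1 rose and 5 fell.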
